A study of Mus musculus with 48 samples.

Results

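Mouse genes named Zfp plus a number encode zinc-finger proteins, and 256 of the 368 gene identifiers with such a name in the deposited table were expressed at a mean of at least 3 CPM (counts scaled to a fixed library total) over the 3 wild-type RNA-seq libraries. Those 256 genes, out of 55487 in the table, are the members described here. Zfp36, which encodes a zinc-finger protein of another class that binds messenger RNA, was left out by name. Because the wild-type RNA level chose the members, that level is a description and carries no test. Just inside the minimum lay Zfp433 at 3.10, Zfp69 at 3.22 and Zfp970 at 3.33 CPM, and just outside it lay Zfp97 at 2.94, Zfp951 at 2.87 and Zfp184 at 2.86 CPM.

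The Cys2His2 zinc finger is a short fold held by a zinc ion, and proteins that carry it in tandem arrays read DNA, or in some cases RNA. Many mouse Zfp proteins also carry a Krüppel-associated box (KRAB), which recruits the co-repressor Trim28 and through it the histone methyltransferase Setdb1 and heterochromatin proteins, a system known for silencing retroelements and imprinted loci. These genes arose largely by tandem duplication and often sit in clusters of near-identical copies, and a minority of the name class has other roles, such as mRNA processing, ubiquitin transfer or ribosome assembly.

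All libraries came from Ba/F3, a line of mouse pro-B cells dependent on interleukin 3, cultured with 1 ng/ml interleukin 3 and 10% fetal calf serum and exposed to 0.1 mg/ml cycloheximide for 1 minute before harvest. The genotypes were WT, Rpl5 +/-, Rpl11 +/-, Rpl22 +/-, Rpl22 -/-, Rpl10 R98S/R98S, Rps15 P131S/P131S and Rps15 H137Y/H137Y, which remove or alter proteins of the large (Rpl) or small (Rps) ribosomal subunit. The last 2 are called P131S and H137Y below. Titles of the P131S RNA samples name only P131S, and the genotype field, which gives P131S/P131S, was followed. Each genotype was represented by 3 numbered lines, called clones here, and each clone gave 1 poly(A) RNA library and 1 ribosome footprint library from the same lysate, 48 libraries in all. How the lines were made is not given in the sources used here, so p-values measure the spread between these clones.

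RNA libraries held 13029073 to 38258559 counts and footprint libraries 15598994 to 72044439, the fewest in Rpl22 +/- clone 60. The median count of a member was 145 to 489.6 per RNA library and 87.5 to 591 per footprint library, and 43 members had a count of 0 in at least 1 footprint library. Of the markers of the cell line, WT clones held Ptprc at 231 to 259, Il3ra at 26.1 to 28.5 and Csf2rb at 479.7 to 577 CPM, and the B-lineage gene Cd79b at 5.91 to 9.93 CPM. Cd79a lay at 0.0356 to 0.188, Vpreb1 at 0.0344 to 0.0753 and Pax5 at 0 to 0.0377 CPM, and Ebf1, Igll1, Rag1, Rag2, Il7r and Kit were at 0. Summed granulocyte markers were at 41.6 to 158 CPM in WT, 167 to 413 in Rpl5 +/-, 524 to 2791 in P131S and 520.2 to 3080 in H137Y. Within that list S100a8 was at 3.05 to 37.8 CPM in WT, 197 to 984 in P131S and 172 to 884 in H137Y, and S100a9, Ltf and Ms4a3 were also above WT in every Rps15 clone, whereas Prtn3 overlapped (30.8 to 39.0, 22.7 to 55.5 and 26.3 to 58.4 CPM) and the defining gene Elane was at 0 in WT and at most 0.202 and 0.153 CPM in the mutants. Mast cell or basophil markers summed to 16.0 to 46.3, 99.9 to 278 and 27.3 to 122 CPM in WT, P131S and H137Y, and erythroid markers to 95.8 to 117, 63.2 to 98.9 and 140.3 to 375 CPM. The part of these marker levels in the Rps15 results below was not tested. In bulk samples, fewer cells of a type and less RNA per cell cannot be told apart.

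In WT cells the members' RNA ran from 3.10 to 659 CPM with a median of 12.7, against a median of 41.2 for other genes over the same minimum. CPM on column totals, which the rule used, gave these ranges, and all clone values that follow are CPM on TMM-scaled library sizes. Neither is divided by transcript length, so they do not rank genes against each other. The 5 members with the highest TMM-scaled values were Zfp106, which encodes an RNA-binding protein, at 626 ± 12.5 (SD, n = 3), Zfp91, a ubiquitin ligase, at 236 ± 1.37, Zfp706 at 216 ± 8.09, Zfp207 at 152 ± 4.08 and Zfp652 at 117 ± 4.67. Ribosome footprints on the members ran from 0.225 to 161 CPM with a median of 7.76. The footprint to RNA ratio, a measure of ribosome load per transcript, had a median log2 of −0.67 and was below 0 for 185 of 256 members, or 72.3%. Among other genes over the same minimum the median was −0.30, and 59.9% lay below 0. In share of all counts the members held 0.620% ± 0.00748 (SD, n = 3) of WT RNA and 0.356% ± 0.0150 of WT footprints.

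Most differences in member RNA were decreases, and they were most frequent in the Rps15 genotypes. In P131S, 105 members fell and 27 rose at the RNA level, and in H137Y 72 fell and 35 rose (edgeR's quasi-likelihood test, Benjamini-Hochberg adjusted p under 0.05 over the 12814 genes tested, 1 fit over all 24 RNA libraries). The members that fell in P131S were 41.0% of all members, against 23.2% of all genes tested, and those that rose were 10.5%, against 23.8%. The corresponding shares in H137Y were 28.1% against 20.0% for decreases and 13.7% against 20.8% for increases. The median log2 difference of the members was −0.23 in P131S, with 180 of 256 below 0, and −0.15 in H137Y, with 157 below 0, while the medians over all genes tested were −0.01 and 0.01. WT RNA libraries also chose the members, and with the 3 CPM minimum set on all 24 RNA libraries instead the medians were −0.19 and −0.11. Each mutant was compared with the same 3 WT clones, so the comparisons are not independent of each other.

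Lower member RNA was also the more frequent direction in Rpl11 +/-, Rpl22 +/- and Rpl22 -/-, and by a smaller margin in Rpl10 R98S/R98S. In Rpl11 +/- 41 members fell and 5 rose, where 6.10% and 5.52% of all genes did. Rpl22 +/- had 39 lower and 4 higher, with 2.80% and 1.04% of all genes, and Rpl22 -/- had 45 lower and 5 higher, with 3.86% and 1.38% of all genes. The shares of members that fell were 16.0%, 15.2% and 17.6%, and the members' median log2 differences were −0.11, −0.17 and −0.18. Rpl10 R98S/R98S gave 20 lower and 15 higher with a median of −0.06, where 6.04% of all genes fell and 6.59% rose. In Rpl5 +/- 1 member fell and 1 rose with a median of −0.01, where 0.414% of all genes fell and 0.499% rose. There 22 of 256 members were under an unadjusted p of 0.05, beside 1903 of the 12814 genes tested. When the fit held only the 2 genotypes compared, the calls numbered 25 in Rpl5 +/- (12 higher, 13 lower) and 77 in Rpl22 +/- (15 and 62). They numbered 84 in Rpl22 -/- (13 and 71) and 84 in Rpl10 R98S/R98S (31 and 53). In Rpl11 +/- they numbered 32 (3 and 29), in P131S 123 and in H137Y 79. Calls in such fits were counted for the members only. With 1 clone left out they fell to as few as 19 in Rpl22 +/- (without clone 16), 29 in Rpl22 -/- (without WT clone 3), 28 in Rpl11 +/- (without clone 406), 14 in Rpl10 R98S/R98S (without clone A29) and 0 in Rpl5 +/- (with any 1 of its comparison left out).

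**Figure D1:**
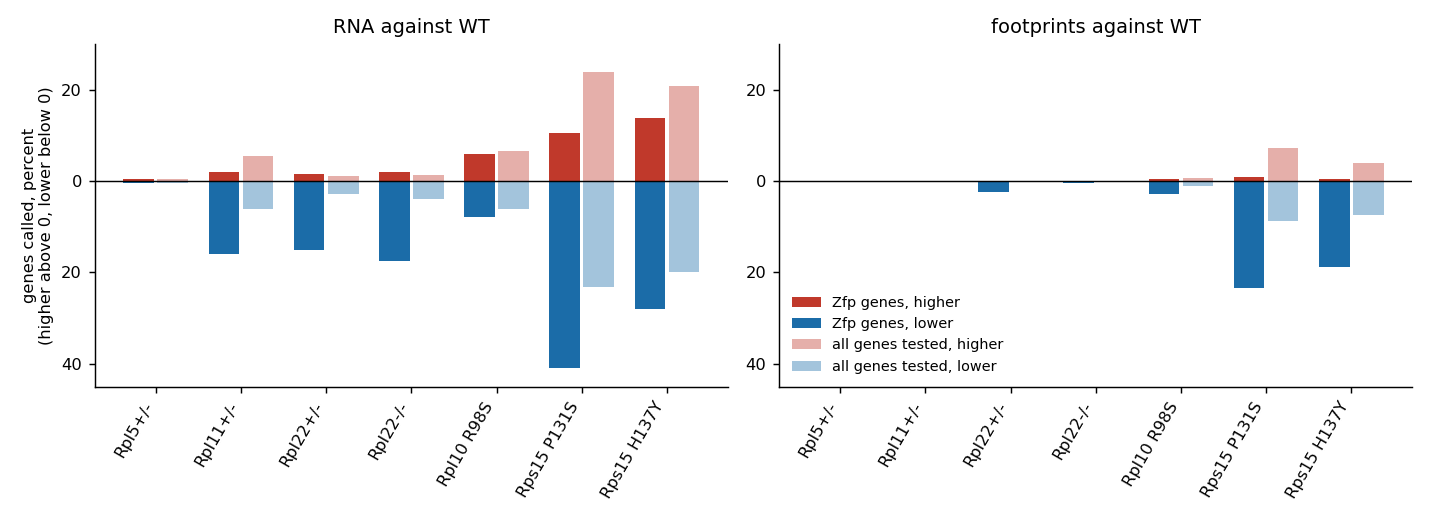
Percent of the 256 members (solid bars) and of all genes tested (pale bars) called higher (above 0) or lower (below 0) than WT in each of the 7 mutant genotypes, for RNA and for footprints, by edgeR's quasi-likelihood test at an adjusted p under 0.05. The bars for members called lower in RNA reach 41.0% in P131S and 28.1% in H137Y, above the 23.2% and 20.0% of all genes.

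The member medians of single clones show the spread behind these counts. The median log2 RNA value of the members against the WT mean was −0.24 to −0.19 in the P131S clones, −0.22 to −0.17 in Rpl22 -/-, −0.21 to −0.14 in Rpl22 +/-, −0.18 to −0.03 in Rpl11 +/-, −0.08 to −0.05 in Rpl10 R98S/R98S and −0.01 to 0.01 in Rpl5 +/-. The H137Y clones spread most, at −0.36 in clone 6, −0.07 in another and 0.00 in the third. Footprints lay further from WT: −0.68 to −0.50 in P131S and −0.59 to −0.44 in H137Y, with WT clones at −0.04 to 0.10. All 3 clones of both Rps15 genotypes were thus below every WT clone in footprints, while in RNA 1 H137Y clone, at 0.00, lay within the WT range of −0.02 to 0.01. This separation in footprints was not particular to Rps15. It also held in Rpl22 +/- (−0.61 to −0.24), Rpl10 R98S/R98S (−0.35 to −0.20), Rpl22 -/- (−0.31 to −0.17) and Rpl11 +/- (−0.26 to −0.17). Rpl5 +/- clones, at −0.12 to 0.00, overlapped WT. As a share of all counts, the members took 0.516% ± 0.00653 (SD, n = 3) of RNA in P131S and 0.565% ± 0.0487 in H137Y, and 0.247% ± 0.0117 and 0.276% ± 0.00505 of footprints.

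**Figure D2:**
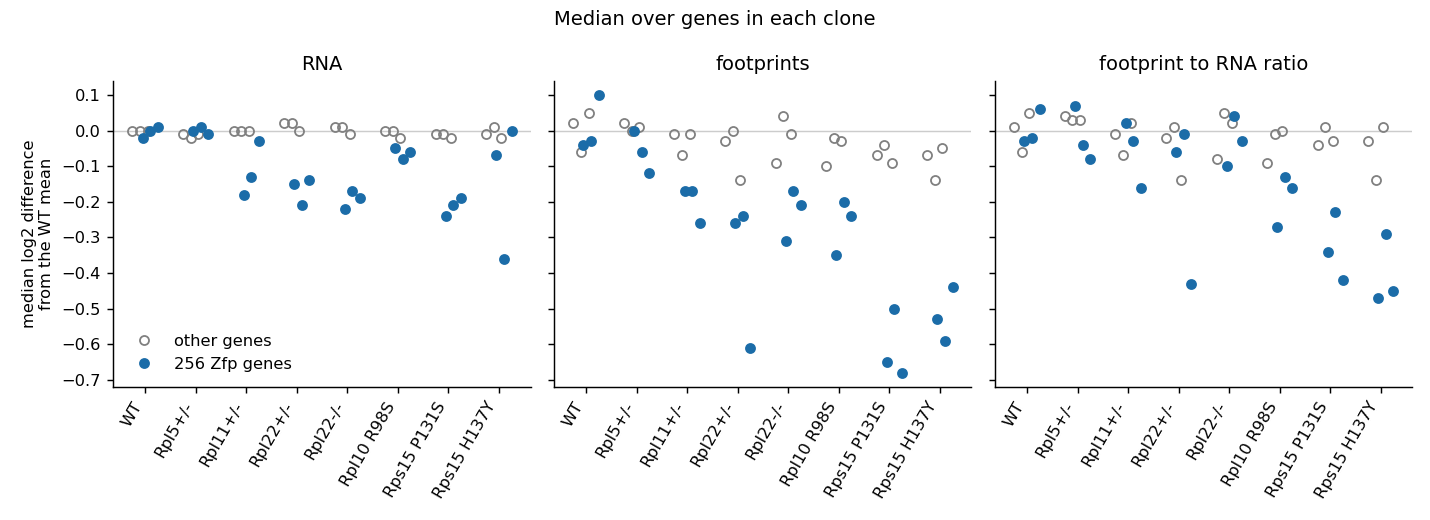
Median log2 value of the 256 members in each clone relative to the WT mean, for RNA, footprints and the footprint to RNA ratio, with 1 filled point per clone and 3 clones per genotype; open points give the median of the other genes. Footprint medians of the P131S clones lie at −0.68 to −0.50 and those of H137Y at −0.59 to −0.44, under the WT clones at −0.04 to 0.10.

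Of the 256 members, 83 were called in none of the 7 RNA comparisons with WT, 70 in 1, 41 in 2, 22 in 3, 14 in 4, 16 in 5, 9 in 6 and 1 in all 7. This distribution was made for the members only. Of all genes tested, 47.0% were called in P131S, 40.8% in H137Y and 0.913% to 12.6% in the other genotypes. The member called in all 7 was Zfp296, which encodes a partner of the pluripotency factor Klf4 and lies alone at chr7:19577287-19580656 (GRCm38). Its RNA was 4.48, 3.59 and 4.26 CPM in the WT clones, 7.94, 6.53 and 7.02 in Rpl5 +/-, 10.7, 8.48 and 14.4 in Rpl11 +/-, 8.69, 10.4 and 11.1 in Rpl22 +/-, 11.3, 10.3 and 12.7 in Rpl22 -/-, 9.61, 9.57 and 7.79 in Rpl10 R98S/R98S, 13.2, 12.7 and 13.6 in P131S, and 14, 11.7 and 13.9 in H137Y. Every mutant clone was above every WT clone. Here and below, most genes named for a difference had to be called with groups that did not overlap, so their separation was a condition of naming them. Zfp296 rose by log2 1.68 in each Rps15 genotype (adjusted p = 1.32e-07 in P131S and 9.36e-08 in H137Y, edgeR), by 1.47 in Rpl22 -/- (1.84e-05), 1.45 in Rpl11 +/- (2.17e-05), 1.29 in Rpl22 +/- (4.87e-05), 1.13 in Rpl10 R98S/R98S (0.000142) and 0.81 ± 0.16 (SE) in Rpl5 +/- (0.0253). The call in Rpl5 +/- was lost when any 1 clone of the comparison was left out. Its footprints were 10.2, 6.69 and 9.46 CPM in WT, 21.7, 19.6 and 27.6 in P131S and 28.8, 26.2 and 26.3 in H137Y, so the groups did not overlap there either. They rose by log2 1.39 ± 0.28 (adjusted p = 0.00219, edgeR) and 1.62 ± 0.29 (0.000953), and the ratio of footprints to RNA was not called.

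The 9 members called in 6 RNA comparisons were Zfp46, Zfp54, Zfp60, Zfp81, Zfp87, Zfp512, Zfp738, Zfp790 and Zfp935, and each was lower in all 6. Zfp54, a KRAB zinc-finger gene at chr17:21423227-21435384, had 6.86, 7.29 and 6.98 CPM of RNA in WT, 2.24, 2.22 and 2.05 in P131S and 2.93, 1.89 and 3.02 in H137Y. All P131S and H137Y clones were below all WT clones. It fell by 1.70 ± 0.17 (SE) on the log2 scale in P131S (adjusted p = 2.93e-07, edgeR), by 1.43 in H137Y (2.14e-06) and by 1.11 ± 0.17 in Rpl11 +/- (0.000381), where the clones were at 2.81, 3.39 and 3.57 CPM. Zfp60, a KRAB gene at chr7:27731409-27751689, had 14.9, 18 and 16.3 CPM in WT, 7.56, 7.81 and 6.59 in P131S, 7.96, 7.71 and 8.72 in H137Y and 7.09, 6.69 and 7.87 in Rpl22 +/-. Every clone of those 3 genotypes lay below every WT clone. Zfp60 fell by 1.16 in P131S (8.91e-07, edgeR), 1.01 in H137Y (4.84e-06) and 1.18 ± 0.13 in Rpl22 +/- (1.17e-05), while Rpl5 +/- clones were at 14, 14.9 and 12.2 CPM with a log2 difference of −0.26 and an adjusted p of 0.356. Zfp512 is the 1 member that fell in Rpl5 +/-, at 33.4, 31.4 and 31.9 CPM against 44.3, 43.2 and 41.3 in WT (log2 −0.41 ± 0.09, adjusted p = 0.0300, edgeR), a call lost with any 1 clone left out. It fell further in P131S, by 0.98 (6.70e-08), and in H137Y, by 0.82 (4.40e-07).

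**Figure D3:**
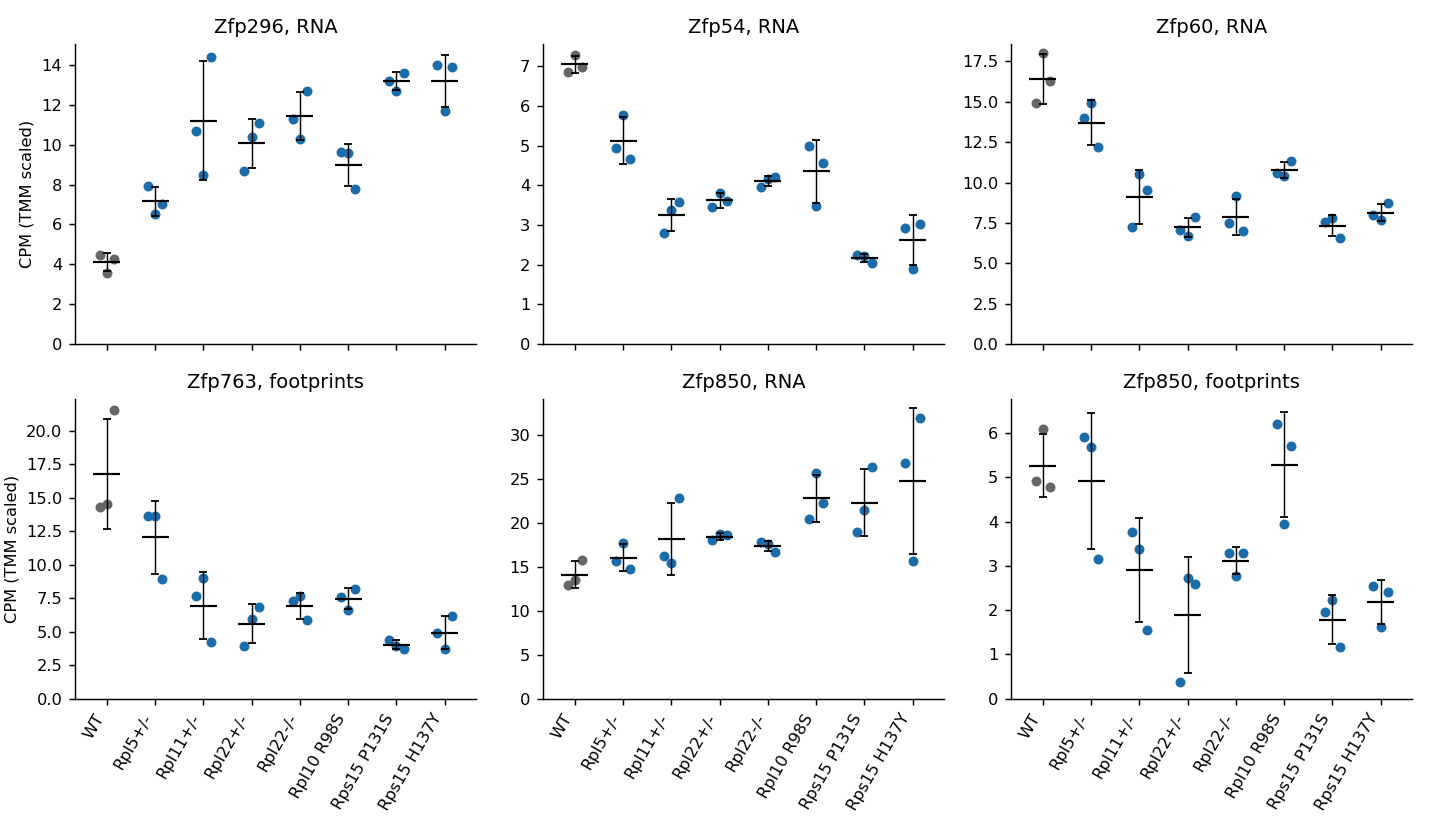
CPM per clone (points), with the mean (bar) and SD (error bar, n = 3) in the 8 genotypes for Zfp296, Zfp54 and Zfp60 RNA, Zfp763 footprints, and Zfp850 RNA and footprints. Zfp296 sits at 3.59 to 4.48 CPM in WT and above that in every mutant clone, and Zfp850 is above WT in RNA and below it in footprints in P131S.

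The promoters of 4 members with differences in RNA that recurred across genotypes are printed to show what lies before their start sites: Zfp296, which rose in all 7 mutants, and Zfp60, Zfp759 and Zfp763, which fell in several. Each is the 250 bases upstream of a RefSeq start on GRCm38.p6, written 5′ to 3′ on the gene's strand. Capitals mark matches on either strand to CCAAT (the CCAAT box), GGGCGG (the GC box) or CCGGAAG (the core bound by ETS factors). The windows are chr7:19577037-19577286 (plus) for Zfp296, chr7:27731159-27731408 (plus) for Zfp60, chr13:67127978-67128227 (plus) for Zfp759, an alternative start inside the gene, and chr17:33033382-33033631 (minus) for Zfp763.
Zfp296: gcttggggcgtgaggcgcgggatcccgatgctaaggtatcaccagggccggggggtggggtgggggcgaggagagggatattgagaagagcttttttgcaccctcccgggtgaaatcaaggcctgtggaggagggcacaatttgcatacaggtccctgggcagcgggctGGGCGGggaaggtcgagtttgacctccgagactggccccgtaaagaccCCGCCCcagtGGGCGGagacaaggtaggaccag
Zfp60: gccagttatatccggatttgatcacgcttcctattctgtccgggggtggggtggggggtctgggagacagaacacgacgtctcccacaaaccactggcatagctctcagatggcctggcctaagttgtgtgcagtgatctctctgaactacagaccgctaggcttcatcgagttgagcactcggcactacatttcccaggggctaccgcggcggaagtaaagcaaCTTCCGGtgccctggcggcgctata
Zfp759: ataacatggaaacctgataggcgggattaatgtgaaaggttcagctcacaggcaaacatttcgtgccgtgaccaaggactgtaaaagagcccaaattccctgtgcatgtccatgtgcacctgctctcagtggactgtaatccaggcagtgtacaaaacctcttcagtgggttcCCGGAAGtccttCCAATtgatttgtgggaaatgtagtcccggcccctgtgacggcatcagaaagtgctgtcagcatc
Zfp763: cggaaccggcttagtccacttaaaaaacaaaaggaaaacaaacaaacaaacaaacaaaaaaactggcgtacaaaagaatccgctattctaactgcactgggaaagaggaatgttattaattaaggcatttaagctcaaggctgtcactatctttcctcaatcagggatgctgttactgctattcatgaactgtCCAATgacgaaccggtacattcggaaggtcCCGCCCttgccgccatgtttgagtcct
Zfp296 holds 3 GC boxes and no match to the other 2 motifs, Zfp60 an ETS core, Zfp759 a CCAAT box and an ETS core, and Zfp763 a CCAAT box and a GC box. RefSeq promoters matched 212 of the 256 members, with 261 windows. CCAAT was present in 49.8% of these windows and in 35.4% of all promoters, CCGGAAG in 17.2% and 9.0%, GGGCGG in 45.6% and 42.6%, TATAAA (the TATA box) in 5.7% and 11.6%, GCGCATGC (the NRF1 core) in 4.2% and 2.9%, CTCGCGAG in 0.4% and 1.0%, and AAGATGGC (the YY1 core) in 1.5% and 1.5%. Median GC content was 54.4% in member windows and 55.6% in other protein-coding promoters, with a median of 12 and 9 CpG dinucleotides. The promoters beside those of the members are of protein-coding genes with no minimum of expression, whereas every member passed the 3 CPM minimum. The part of expression in these shares was not tested. Promoters of neighbouring duplicated genes share sequence and are not independent, and a match is a run of letters, not a site shown to be bound.

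In P131S the 6 members with the largest called decreases in RNA were Zfp870, Zfp54, Zfp329, Zfp790, Zfp759 and Zfp473. Zfp870 had 5.24, 5.05 and 4.67 CPM in WT and 1.33, 1.55 and 1.48 in P131S, and it fell by 1.78 ± 0.19 (SE) on the log2 scale (adjusted p = 4.60e-07, edgeR). Zfp329 went from 18.1, 17.9 and 16.0 to 7.49, 5.99 and 5.08 CPM and Zfp790 from 8.93, 8.22 and 10.1 to 3.54, 2.66 and 3.53 CPM, with log2 differences of −1.49 and −1.48. Zfp473, which encodes a factor in histone pre-mRNA processing, had 3.16, 2.99 and 3.71 CPM in WT and 1.25, 1.11 and 1.45 in P131S (log2 −1.37 ± 0.22, adjusted p = 4.66e-05, edgeR). WT and P131S clones were fully separated for these 6 genes, as the rule for naming them required. Of the 132 members called in P131S, 130 had groups that did not overlap, 18 were lower by more than 2-fold and 2 higher by more than 2-fold. These counts were made for the members only, and 47.0% of all genes tested were called.

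The 6 members with the largest called increases in P131S RNA were Zfp296, Zfp367, Zfp39, Zfp428, Zfp568 and Zfp850. Zfp367 had 18.2, 22.2 and 17.8 CPM in WT and 33.2, 36.6 and 49.8 in P131S (log2 1.04, adjusted p = 0.000732, edgeR). Zfp568, a KRAB repressor of a placental Igf2 transcript, had 24.9, 24.1 and 25.5 CPM in WT and 32.2, 40.6 and 50.8 in P131S (log2 0.73, adjusted p = 0.000118). The clones of the groups were apart for both, with P131S clone 20 the highest. Zfp39, Zfp428 and Zfp850 rose by log2 0.84, 0.76 and 0.66, and the call of Zfp850 was lost without P131S clone 20. Zfp598, a ubiquitin ligase that marks collided ribosomes, lies outside the 6 and is named after its values were seen. Its RNA was 66.9, 66.8 and 68.7 CPM in WT, 96.5, 98.8 and 119 in P131S and 94.9, 84.8 and 95.8 in H137Y. It rose by log2 0.64 ± 0.07 in P131S (adjusted p = 7.84e-07, edgeR) and 0.44 in H137Y (5.30e-05), and by 0.32 in Rpl11 +/-, 0.25 in Rpl22 -/- and 0.24 in Rpl10 R98S/R98S, while no call was made in its footprints.

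In H137Y the largest called decreases in RNA were those of Zfp54, Zfp72, Zfp790, Zfp647, Zfp763 and Zfp60. Zfp72 had 7.38, 7.79 and 6.25 CPM in WT and 2.79, 2.36 and 3.82 in H137Y, and it fell by 1.26 ± 0.19 on the log2 scale (adjusted p = 2.08e-05, edgeR). Zfp790 and Zfp647 fell by 1.13 and 1.08. Zfp763, at chr17:33016864-33033381, had 6.55, 6.94 and 7.08 CPM in WT, 3.83, 1.96 and 4.36 in H137Y (log2 −1.02, adjusted p = 0.00119) and 3.04, 2.42 and 3.77 in P131S (−1.15, 0.000338). H137Y clone 6 was the lowest of the H137Y clones for Zfp54, Zfp60, Zfp72, Zfp763 and Zfp790. Above WT were Zfp296, Zfp39 (log2 0.98), Zfp882 (0.98), Zfp398 (0.76), Zfp568 (0.62) and Zfp966 (0.49), the last of which was lost in 4 of 6 leave-one-out fits. Of the 107 members called in H137Y, 96 had groups that did not overlap, 6 were lower by more than 2-fold and 1 was higher by more than 2-fold. Such counts were again made for the members only, and 40.8% of all genes tested were called.

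The remaining genotypes shared some of these genes. Zfp703, which encodes a co-repressor amplified in breast cancer, had 12.4, 11.9 and 10.7 CPM of RNA in WT, 17.5, 19.2 and 16.6 in Rpl11 +/-, 17.7, 19.9 and 18.4 in Rpl22 +/- and 19.2, 17.4 and 18.6 in Rpl22 -/-. It rose by log2 0.61 (adjusted p = 0.00170, edgeR), 0.68 (0.000842) and 0.66 (0.000912). Zfp87 fell in Rpl11 +/-, from 8.74, 8.75 and 8.56 to 4.84, 5.06 and 2.63 CPM (log2 −1.06, adjusted p = 0.00186), and in Rpl10 R98S/R98S, to 4.07, 4.02 and 5.15 CPM (−0.98, 0.00231). Zfp763 fell in Rpl11 +/-, to 3.28, 3.24 and 3.17 CPM (−1.08, 0.00455). In Rpl22 +/- Zfp82 fell by 1.10 on the log2 scale and in Rpl22 -/- Zfp759, Zfp329 and Zfp691 fell by 1.24, 1.23 and 1.15, the call of Zfp759 being lost without WT clone 3. Clones of the compared groups were apart for every gene of this paragraph, as the rule for naming them required.

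In Rpl10 R98S/R98S Zfp207 rose, which encodes a spindle-assembly protein. Its RNA was 149, 157 and 151 CPM in WT and 283, 289 and 298 in the mutant, and its footprints were 162, 148 and 172 CPM and 294, 280.1 and 271 CPM. The groups did not overlap at either level. Zfp207 rose by log2 0.93 ± 0.09 in RNA (adjusted p = 8.97e-07, edgeR) and 0.81 ± 0.11 in footprints (0.00135), and both calls held with each clone left out in turn. Zfp428 also rose in this genotype, by log2 0.90, with clones at 17.7, 15.7 and 14.6 CPM against 8.21, 8.72 and 8.90 in WT.

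Footprints on the members were lower in the Rps15 genotypes, by more than the RNA. In P131S 60 members fell and 2 rose in footprints, and in H137Y 48 fell and 1 rose (edgeR's quasi-likelihood test over 16217 genes). The members lower in P131S were 23.4% of the members, against 8.76% of all genes tested, and 7.19% of all genes rose. In H137Y 18.8% of the members were lower, against 7.54% of all genes, and 3.93% of all genes rose. The median log2 difference was −0.65 in P131S, with 214 of 256 members below 0, and −0.54 in H137Y, with 207 below 0, and the medians over all genes tested were −0.07 and −0.05. Decreases of more than 2-fold were called for 34 members in P131S and 26 in H137Y, a size of change counted for the members only. The 3 CPM minimum did not use the footprint libraries, but the members were chosen with earlier results of these data known, so these counts are not independent of the choice. Leaving out P131S clone 20 lowered the P131S count to 33 and leaving out WT clone 1 lowered the H137Y count to 25.

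Footprints of Zfp763 fell in 4 genotypes. Its footprints were 14.3, 14.5 and 21.5 CPM in WT, 4.39, 3.91 and 3.74 in P131S, 4.91, 3.71 and 6.14 in H137Y, 3.96, 5.97 and 6.82 in Rpl22 +/- and 7.60, 6.63 and 8.17 in Rpl10 R98S/R98S. Every clone of these 4 genotypes was below every WT clone. The log2 differences were −2.07 ± 0.29 in P131S (adjusted p = 0.000111, edgeR), −1.77 ± 0.28 in H137Y (0.000419), −1.59 in Rpl22 +/- (0.0236) and −1.17 in Rpl10 R98S/R98S (0.0375). The Rpl22 +/- call was lost without clone 13, clone 60, WT clone 1 or WT clone 2, and the Rpl10 call with any 1 clone left out. Zfp759, at chr13:67121659-67142404, had 4.18, 2.81 and 3.09 CPM of RNA and 4.61, 4.35 and 3.42 CPM of footprints in WT, and 1.18, 1.74 and 0.941 CPM of RNA and 0.813, 0.962 and 0.415 CPM of footprints in P131S. Its RNA fell by 1.39 ± 0.26 (0.000211) and its footprints by 2.50 ± 0.52 (0.00256) on the log2 scale, with no overlap. Zfp873 footprints went from 8.30, 12.1 and 15.1 CPM in WT to 1.61, 3.63 and 2.32 in P131S (log2 −2.23, adjusted p = 0.000232) and fell by 1.86 in H137Y (0.00119). Zfp866, Zfp493 and Zfp870 footprints fell by 2.20, 2.12 and 2.06 in P131S, that of Zfp493 being lost without P131S clone 20. Reads shared between near copies can leave fractional counts, and the values of such genes are uncertain. Footprint counts were fractional in 100.0% of libraries for Zfp763 and Zfp866, 95.8% for Zfp873 and Zfp493, 91.7% for Zfp759 and 45.8% for Zfp870.

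In H137Y, Zfp189 footprints were 4.48, 6.69 and 8.52 CPM in WT and 2.15, 0.616 and 1.65 in the mutant (log2 −2.14, adjusted p = 0.00150, edgeR), and Zfp493 footprints fell by 2.12, a call lost without H137Y clone 16 or WT clone 1. Zfp738 footprints fell by 2.38 (0.0289), from 2.41, 2.84 and 3.91 to 0.545, 0.130 and 1.02 CPM, a call lost without H137Y clone 16, H137Y clone 6, WT clone 1 or WT clone 2. Zfp973 had 0.396, 1.80 and 1.10 CPM of footprints in WT and none in any H137Y clone, at least 49.7-fold lower against a floor of 3 counts over the 3 H137Y clones. That call was lost with any 1 of the compared clones left out and under limma voom. Its footprints were also at 0 in all clones of Rpl5 +/-, at least 57.4-fold lower, and of Rpl22 +/-, at least 37.0-fold lower. Its RNA was present in both groups, at 4.24, 8.29 and 6.59 CPM in WT and 6.32, 8.86 and 10.2 in H137Y. Counts of Zfp973 were fractional in every RNA library, which is how reads shared with a near copy appear in estimated counts, and its values are uncertain. Those of Zfp738 were fractional in every library of both assays. The members with higher footprints were Zfp296 in both genotypes and Zfp622, which encodes a factor of large ribosomal subunit maturation, in P131S. Zfp622 footprints were 73.8, 88.8 and 94.5 CPM in WT and 118, 140.2 and 119.8 in P131S, without overlap (log2 0.55 ± 0.14, adjusted p = 0.00989), and this call was lost without WT clone 3.

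Footprints in the other genotypes gave few calls. In Rpl22 +/- 6 members fell and 0 rose, where 0.117% of all genes fell and 0.105% rose. The 6 were Zfp866 (log2 −2.06), Zfp763, Zfp599 (−1.31), Zfp157, Zfp644 and Zfp229, of which Zfp157, Zfp644 and Zfp229 are named after their values were seen. The member medians of the Rpl22 +/- clones in footprints were −0.61 in clone 60, the shallowest footprint library, and −0.26 and −0.24 in the others. Without clone 16 there were 14 calls and without WT clone 1 there were 0, and Zfp866, Zfp763 and Zfp599 were lost in 4, 4 and 5 of 6 leave-one-out fits. Rpl10 R98S/R98S gave 7 lower and 1 higher, where 1.03% of all genes fell and 0.623% rose, with Zfp182 at log2 −1.44 and Zfp157 at −0.75. These 8 calls became 1 without clone A29 and at most 4 in any leave-one-out fit, and those of Zfp182 and Zfp157 were each lost in 5 of 6. Zfp157 was also the 1 member called in Rpl22 -/-, at 12.7, 14.4 and 15.2 CPM against 25.9, 20.4 and 29.8 in WT (−0.84, adjusted p = 0.0439, edgeR), where 0.0925% of all genes were called, and this call too was lost in 5 of 6 leave-one-out fits. Rpl5 +/- and Rpl11 +/- gave 0 calls among the members in edgeR, with 0.0123% and 0.0432% of all genes called. At an unadjusted p under 0.05 there were 9 and 25 of 256 members, beside 648 and 1610 of the 16217 genes tested. The DESeq2 test called 1 and 6 members, and limma voom called 0 and 2. Member medians in footprints were −0.33 in Rpl22 +/-, −0.27 in Rpl10 R98S/R98S, −0.25 in Rpl22 -/-, −0.20 in Rpl11 +/- and −0.04 in Rpl5 +/-.

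**Figure D4:**
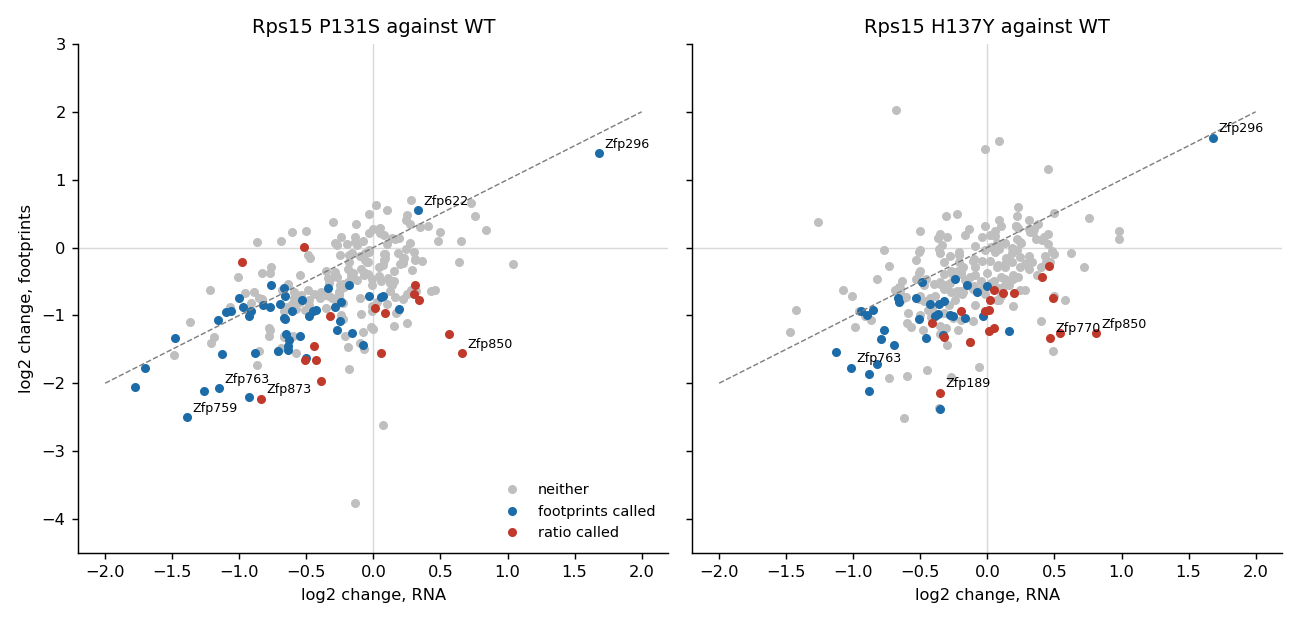
Log2 difference from WT in RNA (horizontal) and in footprints (vertical) for each member in P131S and H137Y, with 1 point per member, coloured by whether its footprints or its ratio were called, and a dashed line of equal difference. Zfp973 in H137Y, with 0 footprints, lies off the axis and is not drawn, and the members' medians are −0.23 and −0.65 in P131S and −0.15 and −0.54 in H137Y.

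The ratio of footprints to RNA, tested as the interaction of assay and genotype in 1 fit over all 48 libraries, was lower for part of the members in the Rps15 genotypes. In P131S 14 members fell and 2 rose in the ratio, and in H137Y 20 fell and 0 rose (edgeR's quasi-likelihood test over 16568 genes). All-gene shares were 2.28% lower and 0.742% higher in P131S, and 2.44% lower and 0.453% higher in H137Y. The members' median log2 difference was −0.32 in P131S, with 194 of 256 below 0, and −0.39 in H137Y, with 200 below 0, against −0.03 and −0.05 over all genes tested. Clone medians of the ratio were −0.42 to −0.23 in P131S and −0.47 to −0.29 in H137Y. In simulated data with a log2 difference of 1 set in 200 genes of the P131S footprints, the ratio test recovered 27.5% of them with 16580 genes tested and the footprint test 45.5% with 16256. Those 200 were drawn from all genes over the 3 CPM minimum, whose levels are mostly above those of the members. The simulated counts held no fractions and no pairing of assays by clone. Recovery among the members themselves was not simulated. The count in P131S was 1 without P131S clone 20, and the count in H137Y was 3 without WT clone 1.

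The members that fell in the ratio in both Rps15 comparisons, which share the WT clones, were Zfp106, Zfp120, Zfp229, Zfp770, Zfp850 and Zfp869. Zfp850, at chr7:27984471-28014210, had 12.9, 13.5 and 15.8 CPM of RNA in WT and 19, 21.5 and 26.4 in P131S. Its footprints were 4.92, 6.09 and 4.79 CPM in WT and 1.96, 2.23 and 1.17 in P131S, so RNA was higher and footprints lower, each without overlap. The ratio fell by 2.22 ± 0.50 (SE) on the log2 scale in P131S (adjusted p = 0.00806, edgeR) and by 2.07 in H137Y (0.0145). The P131S call was lost without P131S clone 20 or WT clone 2, and the H137Y call without H137Y clone 2 or any 1 WT clone. Footprint counts of Zfp850 were fractional in all 24 libraries. Those of Zfp770, at chr2:114193456-114201432, were whole in all 24. Zfp770 RNA was 19.5, 22.1 and 22.6 CPM in WT and 27.9, 31.3 and 35.3 in P131S, and its footprints were 9.28, 7.56 and 11.1 CPM and 4.25, 3.55 and 3.82 CPM, again apart at both levels. Its ratio fell by 1.82 ± 0.40 in P131S (0.00573) and 1.79 in H137Y (0.00653). These calls were lost without P131S clone 20 or WT clone 1, and without WT clone 1 or WT clone 3, respectively.

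Zfp106 was the member with the highest RNA value, and its footprints were 75.4, 75.4 and 65.3 CPM in WT, 45.0, 35.2 and 27.3 in P131S and 34.8, 41.3 and 36.4 in H137Y. The groups did not overlap, and its RNA in WT was 641, 621 and 618 CPM and in P131S 549, 487 and 469.7 CPM. Its ratio fell by 0.69 in P131S (adjusted p = 0.0328, edgeR) and 0.93 ± 0.19 in H137Y (0.00315). The P131S call was lost when P131S clone 20 or 63, or any 1 WT clone, was left out, and the H137Y call without WT clone 2. Zfp120, with 36.2, 34.1 and 36.3 CPM of RNA and 13.1, 12.2 and 11.5 CPM of footprints in WT, had 26.0, 27.6 and 25.8 CPM of RNA and 3.68, 4.62 and 3.32 CPM of footprints in P131S. Its ratio fell by 1.23 ± 0.26 (0.00509) and by 1.00 in H137Y (0.0268). The H137Y call of Zfp120 was lost with any 1 clone left out, and its P131S call without P131S clone 20. Zfp229 fell by 1.15 and 1.24 in the ratio, calls each lost in 4 of 6 leave-one-out fits and with the clone block. Zfp869 fell by 1.07 and 0.79, and its H137Y call was lost in 5 of 6 leave-one-out fits. Footprint counts were fractional in 100.0% of libraries for Zfp869, 95.8% for Zfp120, 91.7% for Zfp229 and 45.8% for Zfp106. Zfp661, Zfp994 and Zfp873 fell by 1.62, 1.58 and 1.39 in P131S, and Zfp267, Zfp189 and Zfp553 by 1.80, 1.78 and 1.26 in H137Y. Of the 6 leave-one-out fits, these calls were lost in 5, 5, 4, 6, 3 and 6, in the order named, and that of Zfp873 also with the clone block.

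A higher ratio was called for Zfp512 and Zfp369 in P131S. Zfp512 RNA was 44.3, 43.2 and 41.3 CPM in WT and 23.4, 20.1 and 21.6 in P131S, while its footprints were 15.5, 20.1 and 17.6 CPM and 12.9, 16.0 and 16.9 CPM. RNA groups were thus apart and footprint groups overlapped, and the footprint difference was log2 −0.22 ± 0.17 (adjusted p = 0.446, edgeR). The ratio rose by log2 0.77 (0.0145), a call lost without P131S clone 20, P131S clone 63, WT clone 1 or WT clone 3. Zfp369 rose by 0.53 (0.0489), a call lost in 5 of 6 leave-one-out fits.

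In the ratio no member was called in the other 5 genotypes by edgeR in the fit over all genotypes. All-gene shares called were 0% in Rpl5 +/-, 0% in Rpl11 +/-, 0.00604% in Rpl22 +/-, 0.00604% in Rpl22 -/-, and 0.181% lower and 0.0543% higher in Rpl10 R98S/R98S. Of the 256 members, those under an unadjusted p of 0.05 numbered 6, 5, 27, 16 and 28. Of the 16568 genes tested, 444, 632, 1305, 795 and 1237 were under it. The DESeq2 test called 1, 0, 2, 0 and 1 member, and limma voom called 0, 0, 1, 0 and 0. A clone block over both assays gave 2 members in Rpl10 R98S/R98S. With only the 2 genotypes compared, edgeR called 2 in Rpl5 +/- and 7 in Rpl10 R98S/R98S, and without Rpl22 +/- clone 16 it called 5 in Rpl22 +/-. Member medians in the ratio were 0.01, −0.05, −0.18, −0.06 and −0.19.

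P131S and H137Y alter residues of the same protein, and the direct comparison of both takes no mean from the WT libraries, which entered the fit only through the shared estimate of the spread. In RNA 39 members were lower and 7 higher in P131S than in H137Y, where 12.2% of all genes were lower and 12.8% higher, with a member median of −0.11. Members lower were 15.2% and members higher 2.73%. In footprints 2 members were lower and 1 higher, where 1.73% of all genes were lower and 2.42% higher, and in the ratio 6 were higher and 0 lower, where 0.495% of all genes were higher and 0.199% lower. Member medians were −0.09 and 0.05 at these levels, and a clone block gave 3 calls in the ratio. The RNA count was 77 without H137Y clone 6, the H137Y clone with the lowest member median, 28 without H137Y clone 16, and 2 when only these 2 genotypes entered the fit. Footprint and ratio calls were then 0, and with any 1 clone left out the ratio count was 1 to 2. Zfp458 RNA was 6.25, 5.30 and 6.91 CPM in WT, 4.07, 2.97 and 3.03 in P131S and 7.35, 6.35 and 7.34 in H137Y, lower in all P131S clones than in the other 6. Its log2 difference between both mutants was −1.06 ± 0.17 (adjusted p = 0.000109, edgeR). Zfp1 went the other way, at 8.78, 7.68 and 7.22 CPM in WT, 6.73, 6.46 and 7.40 in P131S and 4.27, 3.85 and 4.59 in H137Y, with a log2 difference of 0.70 ± 0.15 (0.00149). Zfp1 footprints were 13.7, 11.4 and 10.6 CPM in P131S and 6.87, 3.19 and 7.26 in H137Y (1.04 ± 0.24, 0.0178), so both levels were separated. With only both mutants in the fit neither Zfp1 call held, and the footprint call was also lost without H137Y clone 6 or P131S clone 24.

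Of the members, 120 were counted in 16 chromosomal runs of at least 5 Zfp genes with gaps of at most 500 kb, and the other 136 are called dispersed. Only genes named Zfp plus a number made up the runs, so a dispersed member can still be a near copy of other genes. Zfp973, for example, counts as dispersed and had fractional counts in every RNA library. Zfp268 counts as dispersed although it lies at chr4:145585172-145625343, within the bounds of a run. In RNA, 27 clustered and 14 dispersed members fell in Rpl11 +/-, 26 and 13 in Rpl22 +/-, 24 and 21 in Rpl22 -/-, 12 and 8 in Rpl10 R98S/R98S, 58 and 47 in P131S, and 35 and 37 in H137Y. The median log2 difference in P131S was −0.31 for clustered and −0.17 for dispersed members, and in H137Y −0.19 and −0.10. In footprints 33 clustered and 27 dispersed members fell in P131S, and 17 and 31 in H137Y. Neighbours in a run share sequence, so their counts are not independent of each other.

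Runs differed among themselves. The run at chr13:66670274-67827000 holds 20 Zfp genes, 13 of them members, among them Zfp759. Its median RNA difference was −0.62 in Rpl11 +/- with 9 members lower, −0.58 in Rpl22 +/- with 8, −0.59 in Rpl22 -/- with 6, −0.78 in P131S with 12 and −0.44 in H137Y with 6. The run at chr17:32765496-33631716 holds 11 Zfp genes and 10 members, among them Zfp763 and Zfp870, with a P131S median of −0.70 and 9 lower and 1 higher in RNA, and a median of −1.08 with 6 lower in footprints. At chr17:21008941-23599755, where Zfp54 lies, 11 of 18 members fell in P131S RNA (median −0.40), and at chr7:29768552-30169775, 7 of 11 fell and 1 rose (−0.64). At chr7:27731409-28379228 4 of 5 fell and 1 rose in P131S RNA (−0.71), and at chr7:12412549-12985717 4 of 6 fell (−0.64). Some other runs had P131S RNA medians nearer to 0. At chr4:145510759-147849126 none of the 8 members counted in the run was called (−0.16). At chr6:47815536-48621548 2 of 7 fell (0.08), and at chr7:4915181-5053723 none of 5 fell and 1 rose (0.10).

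Reads that match several near-identical genes can be divided between them, which leaves fractional counts. Footprint counts were whole in all 24 libraries for 55 members, or 21.5%, against 54.6% of other genes, and were fractional in more than 50% of libraries for 121 members, or 47.3%. RNA counts were whole in all libraries for 197 members. The median RNA difference in P131S was −0.06 for the 55 members with whole footprint counts (9 higher, 13 lower), −0.23 for the 80 with fractional counts in up to 50% of libraries (9 and 32), and −0.33 for the other 121 (9 and 60). Of all genes tested, 23.8% rose and 23.2% fell in P131S RNA. The 13 of 55 members with whole counts that fell were thus near the all-gene share. In H137Y RNA these medians were 0.05, −0.07 and −0.27. Footprint medians were −0.33, −0.71 and −0.74 in P131S and −0.22, −0.61 and −0.60 in H137Y. In both Rps15 genotypes the members with whole counts thus had smaller median differences in both assays, and in RNA the H137Y median changed sign. In the ratio the medians were −0.20, −0.37 and −0.33 in P131S and −0.18, −0.55 and −0.34 in H137Y. In the other genotypes the RNA medians of the 55 were −0.03 in Rpl22 -/-, −0.01 in Rpl11 +/- and 0.00 in Rpl22 +/-, and their footprint medians were −0.19 in Rpl22 -/-, −0.10 in Rpl10 R98S/R98S, −0.03 in Rpl22 +/-, 0.02 in Rpl11 +/- and 0.07 in Rpl5 +/-. Their ratio median in Rpl22 -/- was −0.17, further from 0 than the −0.06 of all members. It was −0.16 in Rpl10 R98S/R98S, −0.01 in Rpl11 +/-, 0.00 in Rpl22 +/- and 0.08 in Rpl5 +/-. The part of shared reads in the results was not tested.

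**Figure D5:**
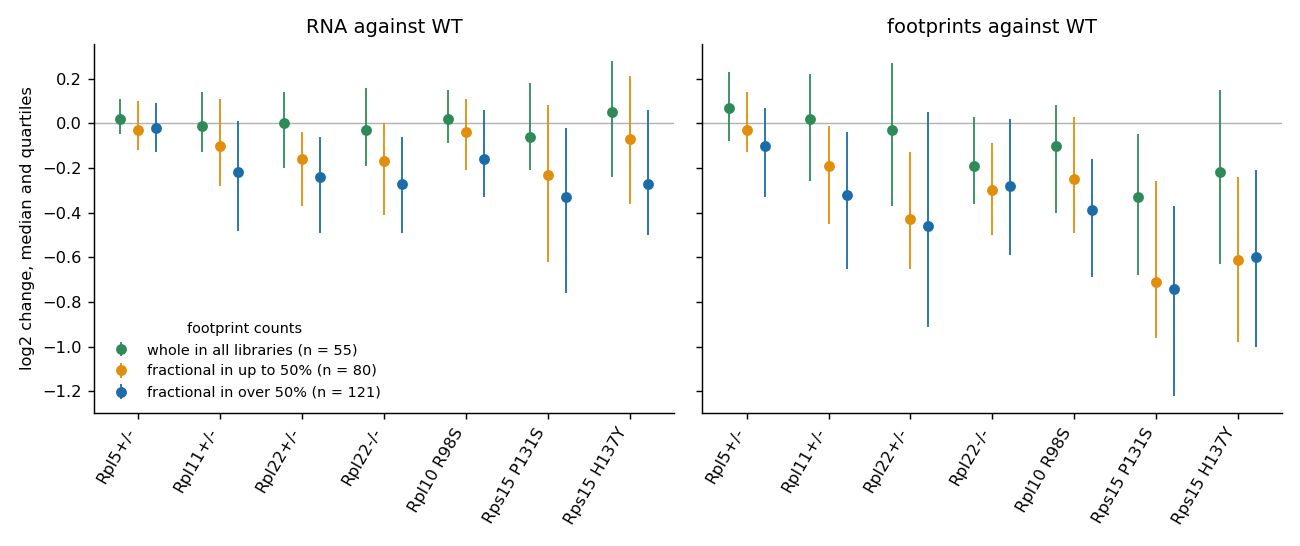
Median (point) and quartiles (line) of the members' log2 difference from WT in the 7 mutant genotypes, in RNA and in footprints, for members grouped by how often their footprint counts were fractional (in none of 24 libraries, in up to 50%, in more than 50%). The 55 members with whole counts have P131S medians of −0.06 in RNA and −0.33 in footprints, against −0.33 and −0.74 in the 121 with fractional counts in more than 50% of libraries.

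In the Rps15 genotypes, genes at 3 to 10 CPM in WT RNA had lower medians in RNA and footprints than genes at 30 CPM or more, among members and among other genes. In P131S footprints the member medians were −0.84, −0.62 and −0.47 for 97 members at 3 to 10 CPM, 109 at 10 to 30 CPM and 50 at 30 CPM or more in WT RNA, and other genes in the same bands had −0.30, −0.13 and 0.00. In H137Y footprints the members had −0.63, −0.52 and −0.50 and other genes −0.18, −0.13 and −0.07. In P131S RNA the medians were −0.30, −0.19 and −0.14 for members and −0.21, −0.09 and 0.06 for other genes, and in H137Y RNA −0.23, −0.11 and −0.01 against −0.07, −0.08 and 0.00. Within each band the member median was thus below that of other genes at both levels. Ratio medians were −0.35, −0.32 and −0.26 in P131S for members against −0.02, 0.00 and −0.01 for other genes, and −0.32, −0.39 and −0.42 in H137Y against −0.08, −0.04 and −0.05.

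Other zinc-finger families over the same minimum are given beside the members, with no test between families. In P131S RNA 0 of 16 Zscan and Zkscan genes, whose proteins join zinc fingers to a SCAN dimerization domain, rose and 11 fell (median −0.43), and in footprints 0 rose and 7 fell (−0.62). Of 31 Zbtb genes, which join zinc fingers to a BTB domain, 6 rose and 11 fell in RNA (−0.24), and 0 rose and 7 fell in footprints (−0.31). Of 16 Klf and Sp genes, 3 rose and 4 fell in RNA (−0.13). Among 41 Zfp genes under the minimum that could be tested, 1 rose and 9 fell (−0.44). All 9723 other genes over the minimum had 2668 higher and 2538 lower, with a median of 0.00. In P131S footprints 7.19% of all genes tested rose and 8.76% fell. In H137Y RNA 0 Zscan and Zkscan genes rose and 7 fell (−0.26), 10 Zbtb genes rose and 9 fell (−0.04), and 4 Klf and Sp genes rose and 3 fell (0.04). Of all genes tested there, 20.8% rose and 20.0% fell.

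Among the co-repressors with which KRAB proteins work, more genes rose than fell in RNA in both Rps15 genotypes. Of 34 listed genes of the Trim28, heterochromatin, NuRD and DNA methylation machinery, 15 rose and 5 fell in P131S RNA (median 0.15), or 44.1% and 14.7%, where 23.8% and 23.2% of all genes did. In H137Y RNA 11 rose and 5 fell (0.09), or 32.4% and 14.7%, where 20.8% and 20.0% of all genes did. In the other genotypes 0 rose and 1 fell in Rpl5 +/-, 0 and 2 in Rpl22 +/-, 0 and 2 in Rpl22 -/-, 3 and 1 in Rpl11 +/-, and 7 and 2 in Rpl10 R98S/R98S. The all-gene shares that rose and fell were, in the same order, 0.499% and 0.414%, 1.04% and 2.80%, 1.38% and 3.86%, 5.52% and 6.10%, and 6.59% and 6.04%. In footprints 6 rose and 4 fell in P131S (0.10), and 4 rose and 3 fell in H137Y (−0.20). Of all genes tested in footprints, 7.19% rose and 8.76% fell in P131S, and 3.93% rose and 7.54% fell in H137Y. Trim28 RNA rose by log2 0.52 in P131S (adjusted p = 2.27e-05, edgeR) and 0.47 in H137Y (8.75e-05), and its footprints by 0.74 (0.00270) and 0.63 (0.0110). Uhrf1, which recruits the maintenance DNA methyltransferase, rose by 0.47 and 0.48 in RNA and 0.91 and 0.64 in footprints, and Dnmt3b, a de novo DNA methyltransferase, by 0.54 and 0.62 in RNA. Setdb1 RNA differed from WT by log2 0.05 and 0.07 and was not called. Its partner Atf7ip fell by 0.48 (8.69e-05) and 0.29 (0.00645) in RNA, Cbx5, a heterochromatin protein, by 0.43 and 0.41, and Mphosph8, a subunit of the HUSH silencing complex, by 0.37 and 0.34. Footprints of Dnmt3b (log2 0.39 in P131S and 0.52 in H137Y), Cbx5 (0.04 and −0.44) and Mphosph8 (−0.06 and −0.32) were called in neither genotype. Those of Atf7ip (−0.30 and −0.43) were called in H137Y only. Some of these RNA calls were not particular to Rps15. Mphosph8 was also lower in Rpl5 +/- (log2 −0.30), Rpl11 +/- (−0.44), Rpl22 +/- (−0.41) and Rpl22 -/- (−0.38). Cbx5 was lower in Rpl22 -/- (−0.24) and Rpl10 R98S/R98S (−0.40). Dnmt3b was higher in Rpl11 +/- (0.32) and Rpl10 R98S/R98S (0.39), and Trim28 in Rpl11 +/- (0.25). In the ratio no gene of the list was called in P131S and Chd3, a NuRD helicase, was lower in H137Y, where 3.02% and 2.90% of all genes were called.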

How the data were processed

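Poly(A) RNA and ribosome footprints of 28 to 30 nt were sequenced from 24 clones. The authors deposited estimated counts per gene, some of them fractional; STAR 2.6.1d, Salmon 1.4.0, DESeq2 1.30 and GRCm38 are named in the submitters' processing notes, without roles. The counted feature and the handling of reads with several matches are not given in the sources used here.

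Counts were rounded and tested with edgeR 4.0.16 in R 4.3.3 (TMM, robust quasi-likelihood, two-sided, Benjamini-Hochberg over all genes kept, threshold 0.05), in 1 fit per assay and 1 over both assays for the ratio. Levels are CPM on TMM-scaled library sizes, and log2 ratios used a pseudocount of 0.1 CPM. The member minimum used CPM on column totals. DESeq2 1.42.0 and voom of limma 3.58.1 were alternatives, as were other normalization, filters, samples and a clone block. Members and gene lists were chosen with earlier results of these data known.

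Named members were, among those called and with groups that did not overlap, the 6 with the largest log2 differences in each direction for the Rps15 genotypes and the 3 largest for the other comparisons, at each level. Added to these were the 5 with the highest WT RNA, the 3 on each side of the 3 CPM minimum, those called in the ratio in both Rps15 genotypes, and up to 5 called in the most RNA comparisons. A whole count is within 0.01 of a whole number. The tests were tested on simulated counts, where the footprint test made 5 false calls and the ratio test 1. RNA and footprints of a clone came from 1 lysate, and their deviations from the genotype mean correlated at r = 0.157 to 0.628 over 9116 genes in all 24 clones. Between different clones of a genotype r was −0.503 to 0.129. Deviations from a shared mean are tied to each other, which lowers these latter values where those within a clone are positive. The main ratio fit did not use the pairing of assays by clone, and the clone block was an alternative. Protein features of the members were not analysed here.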

Additional observations from a re-analysis of the deposited data

Results flagged for a closer look

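Several members differed between P131S and H137Y by the contrast of both genotypes (edgeR's quasi-likelihood test, 3 clones each), so that the 2 substitutions in Rps15 had different levels under the same comparison. In RNA, Zfp831 was at 1.48, 2.62 and 1.01 CPM in P131S and 4.10, 3.57 and 3.63 in H137Y, a log2 difference of −1.15 ± 0.33 (SE, adjusted p = 0.0133, edgeR). Zfp458 differed by −1.06 and Zfp229 by −0.99 ± 0.20 (0.00115), with Zfp229 at 3.12, 2.5 and 2.86 against 6.48, 4.00 and 6.42 CPM. Higher in P131S were Zfp1 at 0.70, Zfp931 at 0.48 ± 0.13 (0.00943) and Zfp326 at 0.43 ± 0.10 (0.00320). With only both mutants in the fit the RNA calls of Zfp831, Zfp229, Zfp1, Zfp931 and Zfp326 were lost, that of Zfp831 also without P131S clone 20 and that of Zfp931 without H137Y clone 16.

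In footprints, Zfp398 differed by −1.04 ± 0.29 (adjusted p = 0.0415, edgeR), with 6.42, 4.66 and 4.94 CPM in P131S and 8.46, 13.7 and 10.9 in H137Y. Zfp229 differed by −0.91 ± 0.23 (0.0248) and Zfp1 by 1.04. Of the 6 leave-one-out fits, these calls were lost in 4, 3 and 2, all 3 with only both mutants in the fit, and those of Zfp398 and Zfp229 also under limma voom and without a count filter. In the footprint to RNA ratio, Zfp738 was higher in P131S by log2 2.59 ± 0.62 (0.0362) and Zfp458 by 2.00 ± 0.49 (0.0451), a call lost with any 1 clone left out, without a count filter, with only both mutants in the fit and with the clone block. The Zfp738 value rests on H137Y footprints of 0.545, 0.130 and 1.02 CPM, and the call was lost when any P131S clone, H137Y clone 16 or H137Y clone 6 was left out. Zfp973 had 1.32, 1.59 and 0.0554 CPM of footprints in P131S and 0 in all H137Y clones, which puts its ratio at least 49.0-fold higher in P131S against a floor of 3 counts over the H137Y group. This call was lost with any 1 clone left out, under limma voom, without a count filter, with only both mutants in the fit and with the clone block, and footprints of Zfp973 were at 0 in Rpl5 +/- and Rpl22 +/- as well.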

How the results depend on the processing

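Of 272 counts of called members recomputed under alternatives, 173 stayed within 1.5 times the value reported and 99 did not. These recounts were made for the members only, without the share of all genes called under each alternative. Of the log2 values of named members, 936 kept direction and side of the threshold, 254 lost the call and 0 reversed. The cause of these differences was not tested beyond the construction of each setting.

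The DESeq2 test called 28 members in the ratio in P131S, 1 in Rpl5 +/-, 2 in Rpl22 +/- and 1 in Rpl10 R98S/R98S. In footprints it called 1 in Rpl5 +/-, 6 in Rpl11 +/-, 15 in Rpl22 +/-, 8 in Rpl22 -/-, 23 in Rpl10 R98S/R98S and 13 between P131S and H137Y. Limma voom called 26 in the ratio in P131S, 1 in Rpl22 +/- and 2 between P131S and H137Y, and in footprints 2 in Rpl11 +/-, 3 in Rpl22 -/- and 18 in Rpl10 R98S/R98S. Without a count filter the ratio calls were 9 in P131S, 13 in H137Y and 2 between both, and footprint calls in Rpl11 +/- were 2. With only the 2 genotypes compared in the fit, RNA calls were 25 in Rpl5 +/-, 77 in Rpl22 +/-, 84 in Rpl22 -/-, 84 in Rpl10 R98S/R98S and 2 between P131S and H137Y. Footprint calls were then 0 in Rpl22 +/-, 3 in Rpl22 -/-, 21 in Rpl10 R98S/R98S and 0 between P131S and H137Y, and ratio calls 2 in Rpl5 +/-, 7 in Rpl10 R98S/R98S, 7 in H137Y and 0 between P131S and H137Y.

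With the clone as a replicate block, which pairs RNA and footprints of the same lysate, ratio calls were 2 in Rpl10 R98S/R98S, 18 in P131S, 18 in H137Y and 3 between P131S and H137Y, and 0 in the other 4 genotypes, and no other ratio count moved by over 1.5 times.

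Leaving out each clone in turn gave RNA calls of 110 to 124 in P131S, 83 to 111 in H137Y, 28 to 77 between P131S and H137Y, 28 to 51 in Rpl11 +/-, 19 to 29 in Rpl22 +/-, 29 to 33 in Rpl22 -/-, 14 to 26 in Rpl10 R98S/R98S and 0 to 0 in Rpl5 +/-. Footprint calls were 33 to 56, 25 to 46, 2 to 4, 0 to 4, 0 to 14, 0 to 1, 1 to 4 and 0 to 0 in the same order. Ratio calls were 0 to 0 in Rpl5 +/-, Rpl11 +/- and Rpl22 -/-, 0 to 5 in Rpl22 +/-, 0 to 1 in Rpl10 R98S/R98S, 1 to 14 in P131S, 3 to 13 in H137Y and 1 to 2 between both. The medians of the members with whole footprint counts, an alternative chosen after seeing the data, are given with the results. Depth limits the footprint and ratio levels, where 43 members had a count of 0 in at least 1 footprint library.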
